A study of Mus musculus with 36 samples.

Results

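The comparison describes how hippocampal slices of T41B mice differed from those of wild-type mice after theta-burst stimulation, when both had been treated with BD10-2. All samples labelled with the treatment PTX-BD10-2 and with stimulation were taken, and libraries that carry the same mouse and stimulation labels were added. This gave 8 of the 32 samples of the series, 1 from each of 5 T41B and 3 wild-type mice. T41B mice are the Thy1-hAPP Lond/Swe line 41, in which a Thy1 cassette, active in neurons, drives human APP with the London and Swedish mutations, and the wild-type mice were C57BL/6. Both groups were gavaged with BD10-2, a small molecule that partly activates TrkB and TrkC, the receptors for the neurotrophins BDNF and NT-3, for 3 months, from 13 to 16 months of age. Slices of the right hippocampus then received theta-burst stimulation 3 times, each of 10 bursts, 200 ms apart, of 4 stimuli at 100 Hz, and were frozen straight afterwards. The transgene is a single line, so its effects cannot be told apart from those of its insertion site, and the labels give no sex and no litter.

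APP with these mutations is cut into more amyloid-beta, which is deposited as plaques in the ageing brain of such mice. Microglia, the resident macrophages of the brain, gather at plaques and express the receptor pair Trem2 and Tyrobp together with lysosomal, lipid-handling and antigen-presenting genes, and astrocytes nearby become reactive and express Gfap and complement C4b. Cells that sense nucleic acids or microbial products secrete type I interferons, which act through Stat2 and Irf9 on promoters that hold an interferon-stimulated response element. Cutting and stimulating a slice also induces cytokine genes in glia and immediate-early genes in neurons, and both groups compared here went through those steps.

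Levels are given as CPM, the expected counts divided by the TMM-scaled library total and multiplied by 1000000. T41B values are listed in the order Mouse1563, Mouse1564, Mouse1570, Mouse1572 and Mouse1592, and wild-type values in the order Mouse1565, Mouse1571 and Mouse1586. The 10 libraries held 15451806 to 24814427 expected counts, with a median of 17524698. Mouse1563 and Mouse1564 belong to batch H, Mouse1592 to batch D and Mouse1586 to batch B, and the other 4 mice, 2 of each genotype, belong to batch I, the only batch with both genotypes. A gene was called when its Benjamini-Hochberg adjusted p in edgeR's quasi-likelihood test, over all genes tested, was under 0.05.

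The genotype labels were first compared with Thy1 and App. Thy1 (ENSMUSG00000032011, chr9:44043384-44048579) stood at 1593, 1546, 1739, 1637 and 1468 CPM in T41B slices and at 279, 253 and 329 CPM in wild-type slices. Every T41B slice was thus above every wild-type slice, at 2.47 on the log2 scale (SE 0.25, adjusted p = 1.01e-07 in edgeR; exact two-sided permutation p = 0.0179, the smallest that 56 assignments can give, and 0.0357 adjusted over both genes). App, counted with the mouse gene, stood at 953, 1121, 1134, 1188 and 1148 CPM against 1023, 1099 and 1213 CPM, and the groups overlapped (0.00 on the log2 scale, SE 0.08, adjusted p = 0.986 in edgeR; exact permutation p = 0.982). Whether reads of the human transgene can be counted under mouse App is not given in the sources used here.

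Of the libraries, the first of the pair labelled as stimulated slices of Mouse1592 stood apart. Its Thy1 level was 918 CPM against 1937 CPM in the second library of that mouse, its Cst7 13.5 against 37.0 CPM, and its Gfap 1266 against 2411 CPM. The log2 levels of this library correlated across genes at 0.988 to 0.991 with the 4 wild-type libraries and at 0.971 to 0.981 with the 4 libraries of other T41B mice, and genes are not independent replicates. Its correlation with the second library of Mouse1592 was 0.991, against 0.994 for the pair of libraries of Mouse1586. Its Thy1 level lay between the 253 to 348 CPM of the wild-type libraries and the 1545 to 1738 CPM of the libraries of the other T41B mice. Whether its label is right was not tested, and each value given for Mouse1592 is a sum that includes it. Without that library 1807 genes were called higher and 545 lower, of which 1593 and 440 are among those described below. The number of members called higher then was equal in 42 of the 59 gene lists and greater in 17. The number called lower was smaller in 2 lists (presynaptic genes 3 and not 4, thalamus and habenula genes 0 and not 1), equal in 53 and greater in 4.

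Of 19478 genes tested, 1596 (8.19%) were called higher and 460 (2.36%) lower in T41B slices. The differences were of unequal size. Of the genes called higher, 800 exceeded a log2 fold change of 1, 281 exceeded 2 and 95 exceeded 3, while 19 of the genes called lower were below -1 and 2 below -2. The levels of all 5 T41B slices lay above those of all 3 wild-type slices for 1811 genes tested (9.3%) and below them for 1064 (5.46%), and 1265 and 351 of these were called. The median log2 fold change was -0.02 over all genes. Protein-coding genes made up 95.2% of those called higher, 89.6% of those called lower and 77.5% of those tested, and the median genomic span was 20.5, 55.6 and 17.4 kb in the same order. Without Mouse1565, 991 genes were called higher and 64 lower, and without Mouse1564 or Mouse1571 the number called lower was 184 or 168. Within batch I alone, with 2 mice of each genotype, 1272 genes were called higher and 718 lower, of which 1039 and 165 are among the 1596 and 460.

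**Figure D1:**
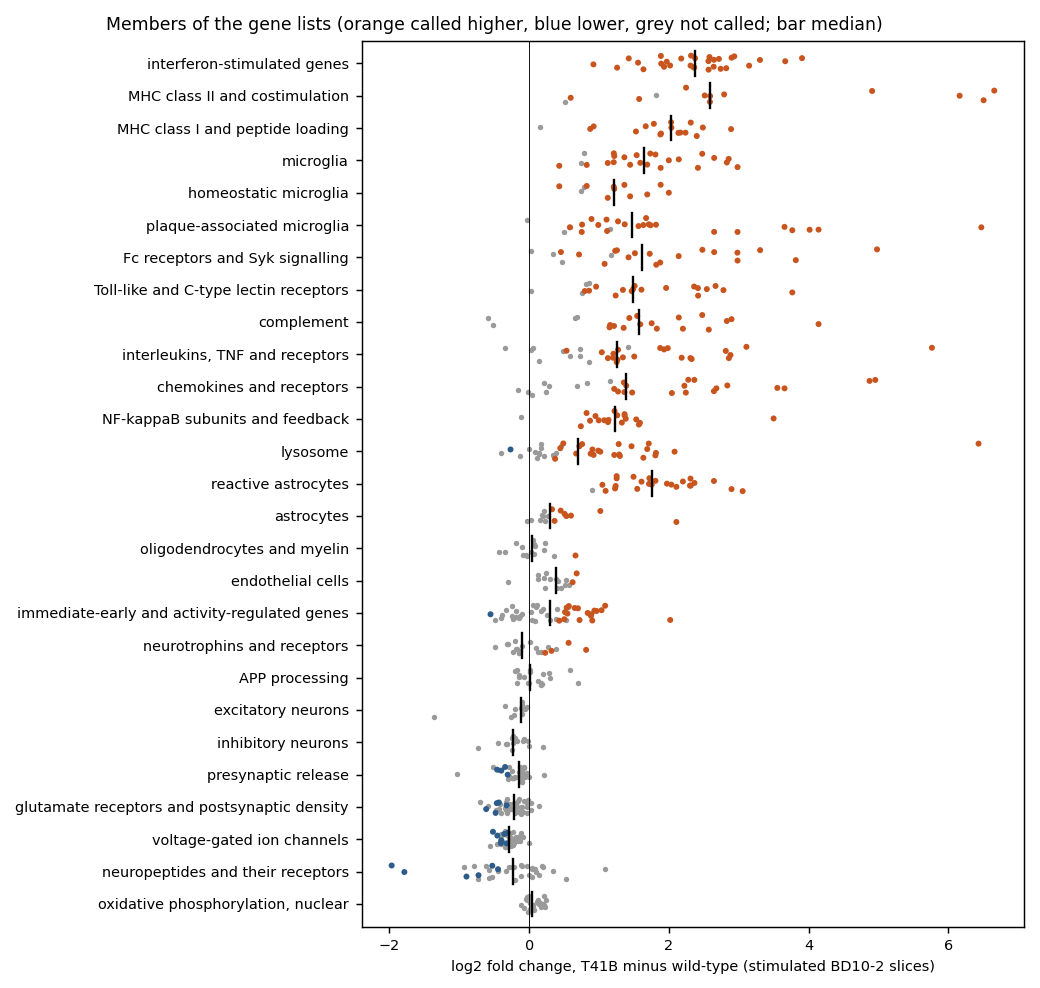
Log2 fold change (T41B minus wild-type, x axis) of each tested member of 27 gene lists (y axis) in stimulated BD10-2 slices; orange points were called higher, blue points lower, grey points not called, and the bar is the list's median. Immune lists lie to the right of 0, with medians of 2.37 for interferon-stimulated genes and 1.64 for microglia, and the synaptic and channel lists lie slightly to its left, with a median of -0.29 for voltage-gated ion channels.

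Antigen presentation held several of the largest differences. Among the 12 genes with the greatest log2 fold change that averaged at least 1 CPM and did not overlap were the 3 chains H2-Aa, H2-Ab1 and H2-Eb1 of the class II molecule, which displays peptides to helper T cells, and Cd74, the invariant chain that guides it. H2-Aa stood at 12.8, 18.5, 19.02, 72.6 and 9.96 CPM in T41B slices and at 0.0811, 0.434 and 0.295 CPM in wild-type slices (log2 fold change 6.66, SE 1.01, edgeR adjusted p = 3.04e-05). Mouse1572 was far above the other 4 T41B slices, and the groups did not overlap. Mouse1572 was also highest for Cd74, at 54.3, 102, 102, 319.8 and 44.5 CPM against 3.16, 5.08 and 4.28 CPM (log2 fold change 4.91, SE 0.74, edgeR adjusted p = 2.82e-05). In batch I, which holds Mouse1572, the log2 fold changes were 7.63 for H2-Aa and 5.71 for Cd74.

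Of the 13 tested genes of class II presentation and costimulation, 11 were called higher and 0 lower, with a median log2 fold change of 2.59. They included Ciita, the master activator of class II genes, at 0.975 to 7.91 CPM against 0.365 to 0.992 CPM (log2 fold change 2.25, SE 0.51), and Cd274, which encodes the checkpoint ligand PD-L1, at 86.4 to 731 against 56.5 to 81.8 CPM (2.59, SE 0.44). The costimulatory genes Cd80 (2.59), Cd86 (1.57) and Cd40 (2.79) were also called. H2-DMa, a subunit of the peptide exchange factor, was not called at a log2 fold change of 0.51, whereas H2-DMb1, its partner chain, was (2.51, SE 0.49).

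The class I pathway displays peptides from inside the cell. Of 17 tested members 16 were called higher and 0 lower (median 2.03). The light chain B2m stood at 146 to 270.02 CPM in T41B and 52.4 to 64.4 CPM in wild-type slices (log2 fold change 1.89, SE 0.25, edgeR adjusted p = 7.3e-06). The transporter Tap1 had a log2 fold change of 2.14 (SE 0.32), the immunoproteasome subunit Psmb8 one of 2.31 (SE 0.30) and Nlrc5, the activator of class I genes, one of 2.49 (SE 0.38). The member not called was the chaperone Calr, at 234 to 272 CPM in T41B and 223 to 242 CPM in wild-type slices. The H2 genes form a family of near-identical copies among which RSEM divides reads, so the values of H2-Q6 (2.89), H2-Q7 (2.398) and H2-D1 (2.04) are uncertain one by one.

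All 30 interferon-stimulated genes on the list were tested and 30 were called higher, with a median log2 fold change of 2.37 and a range from 0.92 for Irf9 to 3.90 for Ifi27l2a. Rsad2, an antiviral enzyme, stood at 895, 1318, 675, 533 and 82.6 CPM in T41B slices and at 77.7, 107 and 90.1 CPM in wild-type slices. It was high in 4 T41B slices and at the wild-type level in Mouse1592, so the groups overlapped (log2 fold change 2.94, SE 0.50, edgeR adjusted p = 0.000138). Both libraries of that mouse were low in Rsad2, at 31.4 CPM in the first and 125.7 CPM in the second, against 533 to 1318 CPM in the libraries of the other 4 T41B mice and 77.6 to 107 CPM in the wild-type libraries. The mean of log2(CPM + 1) over the list exceeded the wild-type mean by 2.36, 2.78, 2.10 and 2.16 in the other 4 T41B slices and by 0.42 in Mouse1592, whose microglial list level, at 1.57, lay within the 1.27 to 1.71 of the other 4. In batch I 30 of the list were called higher (median 2.47).

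Oas3, a sensor of double-stranded RNA that activates RNase L, was not on that list but was among the 12 genes. It stood at 7.27, 10.8, 3.12, 3.96 and 0.768 CPM against 0.0405, 0.062 and 0.177 CPM, without overlap (log2 fold change 5.54, SE 0.89, edgeR adjusted p = 6.47e-05). Ifi206, of a nucleic-acid sensor family of similar copies, was also among the 12 (4.47, SE 0.66). The transcription factor subunits themselves differed less, at 1.26 for Stat2 and 0.92 for Irf9, than the RNA sensor Oas1a (3.30) and the nucleic-acid sensor Zbp1 (3.15), all of them called. Irf7, which amplifies interferon production, stood at 14.9 to 121 CPM in T41B and 10.1 to 13.3 CPM in wild-type slices (2.57, SE 0.47).

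Promoters are shown for Oas3, Fcgr4 and H2-Aa, 3 of the 12 genes, because they show motifs that were searched for in all promoters. Each runs from 250 bases before to 50 bases after the RefSeq start site on GRCm38.p6, 5′ to 3′ on the gene's strand, with every match to 1 of 5 motifs in capitals. Oas3 (chr5:120777610-120777909, minus strand) holds the interferon motif 75 bases before the start between matches to the AP-1 motif at 109 and 54 bases, the farther one on the opposite strand.
Oas3: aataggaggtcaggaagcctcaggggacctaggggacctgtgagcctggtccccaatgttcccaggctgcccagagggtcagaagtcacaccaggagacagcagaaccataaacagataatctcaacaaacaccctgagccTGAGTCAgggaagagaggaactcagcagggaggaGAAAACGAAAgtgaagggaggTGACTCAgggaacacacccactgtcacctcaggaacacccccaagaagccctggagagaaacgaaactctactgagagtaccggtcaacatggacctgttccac
Fcgr4 (chr1:171018676-171018975, plus strand) holds the interferon motif 73 bases before its start and, on the opposite strand, a PU.1 motif at 24 bases.
Fcgr4: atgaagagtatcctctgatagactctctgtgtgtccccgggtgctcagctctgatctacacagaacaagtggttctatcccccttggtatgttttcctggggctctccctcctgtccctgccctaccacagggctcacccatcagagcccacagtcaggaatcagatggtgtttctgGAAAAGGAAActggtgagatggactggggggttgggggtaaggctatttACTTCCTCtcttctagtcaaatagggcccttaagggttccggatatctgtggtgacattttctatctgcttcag
H2-Aa (chr17:34287774-34288073, minus strand) holds a palindromic cAMP response element 74 bases before its start.
H2-Aa: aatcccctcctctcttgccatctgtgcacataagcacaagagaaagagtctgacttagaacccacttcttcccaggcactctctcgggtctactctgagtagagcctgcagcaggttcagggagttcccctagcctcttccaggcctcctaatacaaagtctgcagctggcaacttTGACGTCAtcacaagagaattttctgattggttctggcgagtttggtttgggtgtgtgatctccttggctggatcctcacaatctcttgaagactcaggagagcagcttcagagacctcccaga

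Of the genes tested, 12456 matched a promoter by symbol, among them 1218 called higher and 346 called lower. The interferon-stimulated response element occurred on either strand in 10.34% of promoters of genes called higher, 3.47% of those called lower and 3.78% of all tested. The AP-1 motif TGACTCA occurred in 9.11%, 2.6% and 4.73% in the same order, the PU.1 motif GAGGAAGT in 7.55%, 2.6% and 3.45%, and the kappaB motif in 3.53%, 1.16% and 1.95%. The cAMP response element TGACGTCA went the other way, with 2.05%, 3.76% and 3.33%. Over all 27025 promoters in the table the 5 shares were 3.99%, 5.95%, 3.69%, 1.89% and 2.03%. Overlaps between motifs were not removed, a match is no evidence of binding, and these shares carry no test.

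Microglial genes were higher with few exceptions. Of 24 marker genes 22 were called higher and 0 lower, with a median log2 fold change of 1.64, and their summed level was 1007 to 1470.4 CPM in T41B slices and 318 to 385 CPM in wild-type slices. In bulk slices, more cells of a type and more RNA per cell cannot be told apart. Trem2, the lipid-sensing receptor of plaque microglia, stood at 57.6, 67.1, 34.8, 37.7 and 34.5 CPM against 5.03, 7.38 and 5.38 CPM (log2 fold change 2.98, SE 0.28, edgeR adjusted p = 6.2e-08). C1qa, a chain of the complement initiator C1q, had 77.7 to 119 against 12.6 to 15.9 CPM (2.83, SE 0.25), and Irf8, a factor of the microglial lineage, 19.9 to 79.8 against 4.25 to 6.88 CPM (2.86, SE 0.34). P2ry13 and Gpr34 were not called, at log2 fold changes of 0.74 and 0.78.

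Plaque-associated and homeostatic genes were both called higher. The 12 homeostatic genes are all among the 24 microglial markers above, and so are Trem2 and Tyrobp of the plaque-associated list. Of 26 plaque-associated genes 22 were called higher (median 1.47), and of 12 homeostatic genes, which microglia at plaques are known to lower, 10 were (median 1.21), with 0 called lower in either. Cst7, an inhibitor of cathepsins (chr2:150570415-150578944), stood at 66.1, 59.1, 25.7, 29.7 and 26.2 CPM in T41B slices and 0.689, 0.434 and 0.295 CPM in wild-type slices, the largest difference of the list (6.47, SE 0.48, edgeR adjusted p = 1.1e-09). The 2 slices of batch H held more Cst7 than the other 3 T41B slices. Itgax, an integrin, was 14.3 to 22.9 against 0.851 to 1.21 CPM (4.14, SE 0.36), and Spp1, the matrix protein osteopontin, 12.2 to 48.1 against 0.886 to 2.54 CPM (4.01, SE 0.50). Tmem119, a homeostatic marker, stood at 1.99, 2.697, 3.83, 2.07 and 5.88 CPM against 2.15, 1.12 and 1.12 CPM, and although it was called (1.21, SE 0.35, edgeR adjusted p = 0.0215) the groups overlapped. That call was lost without Mouse1592 (edgeR adjusted p = 0.0894) and in batch I (0.244). Within batch I, 23 plaque-associated and 7 homeostatic genes were called higher, with medians of 1.21 and 0.84.

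Dcstamp and Atp6v0d2 encode a fusion receptor and a proton pump subunit that osteoclasts and giant cells are known to use. Dcstamp stood at 7.37, 7.43, 4.42, 7.35 and 3.63 CPM in T41B slices, while the 3 wild-type slices together held 4 counts, a ratio of 106 (95% counting interval 41.1 to 389.6; edgeR adjusted p = 9.88e-08). Atp6v0d2 had 0 counts in every wild-type slice and 0.266 to 0.899 CPM in T41B slices, at least 3.97-fold above the floor of 3 counts per wild-type slice.

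Of 22 tested genes of Fc receptor and Syk signalling 18 were called higher and 0 lower (median 1.62). Fcgr4, an activating receptor for IgG2, stood at 3.79, 5.03, 1.18, 5.02 and 0.591 CPM against 0.122, 0 and 0.118 CPM (log2 fold change 4.98, SE 0.70, edgeR adjusted p = 1.39e-05). The groups did not overlap, although Mouse1570 and Mouse1592 were low among T41B slices. The high-affinity receptor Fcgr1 (3.82, SE 0.57) and the inhibitory receptor Fcgr2b (3.31, SE 0.33) were called as well, so activating and inhibitory receptors were both higher. The Syk effectors Plcg2 (0.35) and Pik3cd (0.03) were not called.

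Of 21 tested Toll-like and C-type lectin receptors and adaptors, 17 were called higher and 0 lower (median 1.49). Clec7a, the beta-glucan receptor dectin, led the list (3.77, SE 0.41), followed by Tlr12 (2.78) and Clec4e (2.67), and Cd14, the co-receptor for bacterial lipopolysaccharide, stood at 201 to 609 CPM against 64.95 to 76.2 CPM (2.54, SE 0.27). In batch I, and also without Mouse1565, 11 of the list were called. Of 14 inflammasome genes 10 were called higher, among them Nlrp3 (1.66), Gsdmd, the pore former (1.87), and Naip2 (2.43), against 6 in batch I. Il18 and Panx1 were not called, at 0.06 and 0.16.

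Complement genes from the initiator to receptors were called higher. Of 20 tested genes 16 were called higher and 0 lower (median 1.57). C4b stood at 609, 709, 533, 531 and 430.4 CPM in T41B slices and 132, 227 and 143 CPM in wild-type slices (log2 fold change 1.75, SE 0.21, edgeR adjusted p = 1.85e-06), without overlap. C3, the central component, stood at 8.89 to 33.6 against 2.30 to 3.597 CPM (2.90, SE 0.38). The receptors C3ar1 (1.16) and C5ar1 (1.21) and the inhibitor Serping1 (2.20) were called, and the regulators Cd55 (-0.51) and Cfp, which stabilises the convertase (-0.59), were not.

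**Figure D2:**
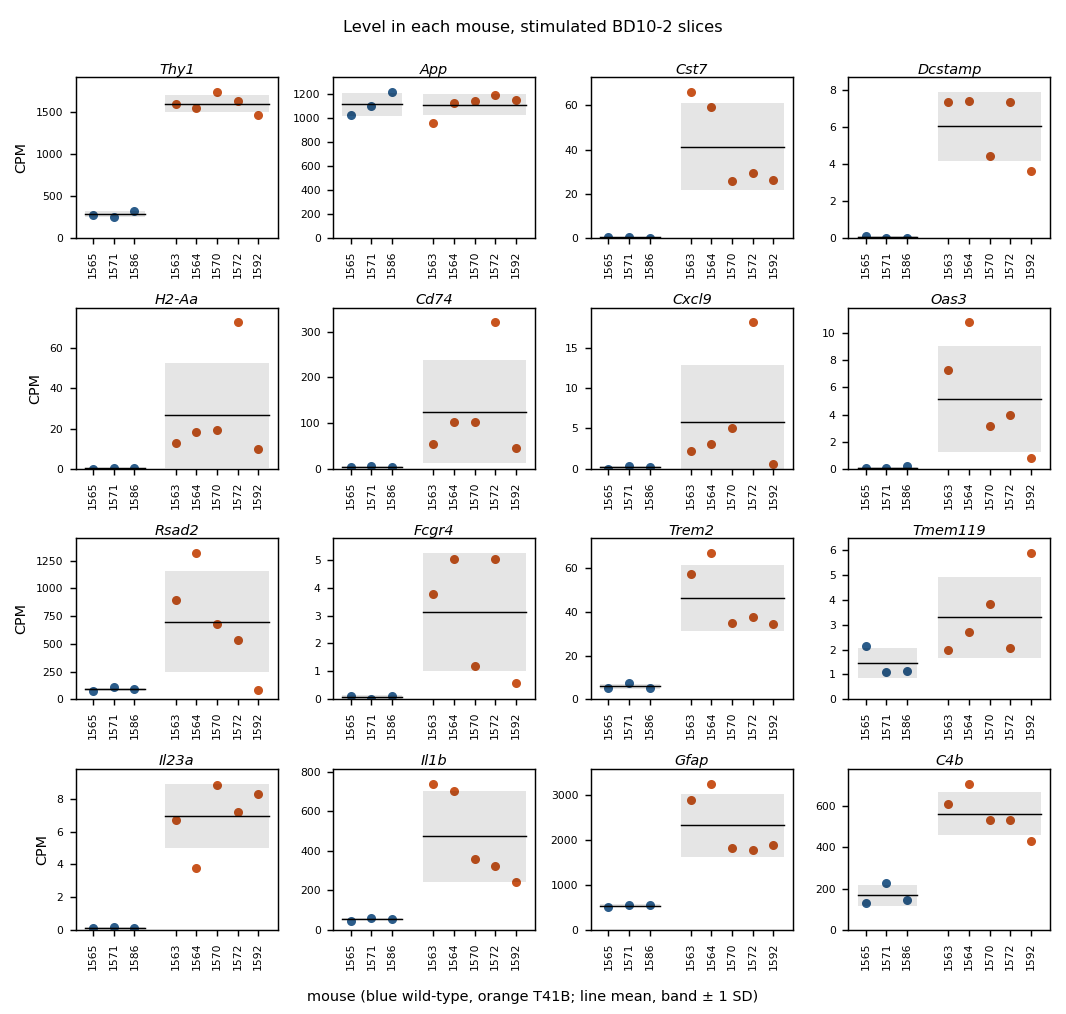
Level (CPM, y axis, linear from 0) of 16 genes in each wild-type (blue) and T41B (orange) mouse (x axis), with the group mean as a line and ± 1 SD as a band. Thy1 lies at 1468 to 1739 CPM in T41B and 253 to 329 CPM in wild-type mice, Mouse1572 is highest for H2-Aa, Cd74 and Cxcl9, and Mouse1592 is at the wild-type level for Rsad2.

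Cytokine genes differed by ligand. Of 31 tested interleukins, TNF genes and receptors 21 were called higher and 0 lower (median 1.26). Il23a, the specific subunit of interleukin 23, stood at 6.72, 3.78, 8.83, 7.22 and 8.27 CPM in T41B slices, against 9 counts in the 3 wild-type slices together, a ratio of 59.5 (95% counting interval 31.2 to 131; edgeR adjusted p = 6.14e-09). Its partner subunit Il12b stood at 25.4 to 99.6 against 4.66 to 29.4 CPM (1.93, SE 0.51), while Il12a, the other partner of that subunit, was not called (-0.34).

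Il1b, the main secreted interleukin 1, stood at 740.2, 703, 358, 321 and 241 CPM against 46.9, 60.4 and 57.1 CPM (log2 fold change 3.11, SE 0.41, edgeR adjusted p = 5.32e-06). All T41B slices were above all wild-type slices, and the slices of batch H were highest. The receptor antagonist Il1rn (2.86, SE 0.51), Il6 (2.81, SE 0.42) and Il1a (1.20, SE 0.29) were called. Tnf stood at 219, 287, 274, 320.2 and 263 CPM against 108, 236 and 153 CPM and was not called (0.72, SE 0.29, edgeR adjusted p = 0.113), and neither were Il10 (0.73) and the signalling receptor Il1r1 (0.48).

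Of 27 tested chemokines and receptors 18 were called higher and 0 lower (median 1.39). Cxcl9, which interferon gamma is known to induce, is a ligand of the chemokine receptor Cxcr3, found on T cells. It stood at 2.19, 3.12, 5.07, 18.1 and 0.561 CPM against 0, 0.372 and 0.236 CPM (4.87, SE 1.09, edgeR adjusted p = 0.00316). As with class II genes, Mouse1572 was highest. Cxcl10, another ligand of that receptor, stood at 195 to 1204 CPM against 94.8 to 169 CPM (2.64, SE 0.40), and Ccl5 at 27.1 to 211 against 25.5 to 30.9 CPM (2.04, SE 0.41). Ccl3 (1.16, edgeR adjusted p = 0.0519), Ccl2 (0.68) and the neuronal ligand Cx3cl1 (-0.16) were not called, whereas its microglial receptor Cx3cr1 was (1.36, SE 0.25).

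Genes of NF-kappaB signalling were higher with 18 of 19 called (median 1.22), Cyld being the exception (-0.12). The feedback inhibitors Nfkbia (1.14, SE 0.15) and Tnfaip3 (1.38, SE 0.20) differed about as much as the subunits Nfkb1 (1.22) and Nfkb2 (1.26). In the STAT3 group 13 of 16 were called higher (median 0.88), led by Socs1 (1.88), Cish (1.75) and Socs3 (1.58), which shut off cytokine receptors. Of 18 prostaglandin and leukotriene genes 8 were called higher, among them Ptgs2, the inducible cyclooxygenase, at 155 to 709 against 82.5 to 161 CPM (2.02, SE 0.36). In batch I 5 were called, and the median was 0.26 in place of 0.91, and in a fit of the 2 groups alone 4 were called.

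Lysosomal genes were higher in part. Of 38 tested 23 were called higher and 1 lower, with a median of 0.70. Besides Atp6v0d2, the largest differences included proteases and hydrolases such as Ctsh (2.08), Ctss (1.81) and Ctsd (1.71, 335 to 615 against 136 to 156 CPM). Psap (0.17) and Npc1 (0.08) were not called, and Mcoln1, a lysosomal calcium channel, was lower (-0.27, SE 0.08, edgeR adjusted p = 0.0312). Of 34 cholesterol and lipid genes 11 were called higher, with Ch25h, which makes 25-hydroxycholesterol (2.30), the lipid droplet coat Plin2 (1.32), the exporter Abca1 (1.27) and Apoe (0.75, 1706 to 2555 against 988 to 1259 CPM). The synthetic enzymes Fasn (0.08) and Scd2 (0.08) were not called.

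Of 26 antioxidant, metallothionein and oxidase genes 13 were called higher and 0 lower (median 0.70). Nos2, the inducible nitric oxide synthase, stood at 0.827 to 22.1 CPM against 0.568 to 1.06 CPM, with overlap (3.79, SE 0.62, edgeR adjusted p = 7.85e-05), and Cybb, the catalytic subunit of the phagocyte oxidase, at 10.7 to 40.6 against 2.59 to 5.46 CPM (3.01, SE 0.37). Sod1 (0.20) and Prdx1 (0.34) were not called. Of 31 matrix and protease genes 14 were called higher, led by Spp1 and Timp1 (3.06), but 8 without Mouse1565. Of 27 purine and sensing receptors 15 were called higher, led by Adora3 (2.99), against 7 in batch I and 9 without Mouse1565.

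Of the astrocyte genes, mainly those of the reactive list were called. Of 25 reactive genes 24 were called higher (median 1.75), with Cd109 the exception (0.89). Gfap, the intermediate filament of reactive astrocytes, stood at 2886, 3252, 1817, 1771 and 1884 CPM in T41B slices and 502, 559 and 557 CPM in wild-type slices (log2 fold change 2.11, SE 0.21, edgeR adjusted p = 9.59e-08), without overlap. Of 16 general astrocyte genes 8 were called higher (median 0.30), among them Gfap, which is on both lists, Aqp4 (1.02) and Sox9 (0.60), and the abundant transporter Slc1a2 was not (-0.04). That count was 2 without Mouse1565 and 2 in batch I, while the reactive list had 21 and 24 calls. Several reactive genes, such as H2-D1, Psmb8 and Cxcl10, are on the immune lists too.

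Genes of other cell types are given with the 8.19% of all genes called higher in view. Of 16 myelin and oligodendrocyte genes 1 was called (median 0.04), Opalin (0.66), and Mbp (0.07) was not. Of 11 precursor genes 4, or 36.4%, were called higher with a median of 0.29 (Matn4, Vcan, Cspg4 and Sox6, at 0.61, 0.53, 0.51 and 0.29), but 0 without Mouse1565. Of 16 endothelial genes 2 were called (median 0.39), Mfsd2a (0.68) and Slc2a1 (0.62), against 1 without Mouse1565 and 4 in batch I. Of 11 mural genes 3, or 27.3%, were called (median 0.46), against 0 without Mouse1565 and 2 in batch I. Choroid plexus genes had 0 of 9 called (median 0.44), with Ttr at 0.149 to 9.48 CPM against 0.0295 to 0.372 CPM, and ependymal genes 1 of 9, Rarres2 (1.46), although all 9 had a positive difference (median 0.92).

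Markers of blood leukocytes were at or near 0 in most slices. Of 10 neutrophil genes 2 were abundant enough to be tested, and Ly6g, Ngp and Retnlg had 0 counts in all 8 slices. Csf3r, which microglia also express, was called (2.37, SE 0.28). Of the monocyte genes, Ccr2 held 21 counts in the 5 T41B slices together and 0 in the 3 wild-type slices, too few to be tested, and Chil3 held 0. Summed over the 8 monocyte genes the level was 76.5 to 112 CPM in T41B and 76.3 to 93.1 CPM in wild-type slices, nearly all from Fn1 and Vcan.

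T and NK cell genes were scarce. Of 16 listed, 7 passed the count filter, which a gene near 0 in wild-type slices can do through T41B slices alone. Of these 7, 4 (57.1%, against 8.19% of all genes) were called higher, against 2 without Mouse1565. In a fit of the 2 groups alone 2 were tested and 1 was called, and in batch I 2 were tested and 2 called. Cd3e held 32 counts in the 5 T41B slices together and 3 in the 3 wild-type slices, and Cd8b1 held 18 and 1. Gzmb, a granule protease of cytotoxic cells, stood at 2.69, 1.92, 0.412, 0.377 and 0.0591 CPM in T41B slices, against 5 wild-type counts, a ratio of 14.6 (95% counting interval 6.04 to 45.8; edgeR adjusted p = 0.0075). The 2 slices of batch H were highest, unlike class II genes, and Mouse1592 lay among the wild-type slices, so the groups overlapped. Ccl5, made by other cells too, gave most of the list's summed level of 30.97 to 219 CPM in T41B slices, against at most 33.2 CPM in wild-type slices. Cd69, an early activation marker of lymphocytes that other leukocytes also carry, was among the 12 largest, at 16.04, 14.4, 10.01, 18.3 and 3.04 CPM against 0.365, 0.372 and 0.325 CPM (5.11, SE 0.50). Of 4 tested B cell genes 0 were called. The part of these cells in the immune differences was not tested.

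Genes called lower were fewer and differed by less. Rxfp1, the relaxin receptor (chr3:79641600-79737951), stood at 1.05, 3.54, 1.41, 4.58 and 4.96 CPM in T41B slices and 5.72, 11.8 and 15.2 CPM in wild-type slices (log2 fold change -1.79, SE 0.56, edgeR adjusted p = 0.0356). The wild-type slices ranged widely, and the groups did not overlap. Crhbp, which binds corticotropin-releasing hormone, stood at 2.79, 2.76, 4.18, 5.34 and 5.91 CPM against 7.26, 8.12 and 8.27 CPM (-0.90, SE 0.21, edgeR adjusted p = 0.00465), and Etv1, an ETS transcription factor, at 36.3, 39.4, 37.4, 36.7 and 45.01 CPM against 57.4, 62.01 and 90.2 CPM (-0.84, SE 0.16, edgeR adjusted p = 0.000478). These 3 are among the 12 lowest of the called genes that averaged at least 1 CPM and did not overlap. The other 9 of those 12 were Mirt1 (-1.67), Gm37999 (-1.15), Gm47026 (-1.09), Trmt9b (-0.93), Slc25a34 (-0.91), A230006K03Rik (-0.88), AU022754 (-0.88), Ccdc155 (-0.86) and Gm40841 (-0.80). Mirt1, A230006K03Rik, AU022754 and Gm40841 are long noncoding RNAs in RefSeq. Without Mouse1565 only Mirt1 and Trmt9b of these 9 were called, and Trmt9b was not called in batch I (edgeR adjusted p = 0.139).

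Receptors and channels of neurons were called lower in small numbers. Of 46 glutamate receptor and postsynaptic genes 5 were called lower and 0 higher (median -0.21). They were the kainate receptor subunit Grik1 (-0.62), the AMPA receptor subunit Gria3 (-0.48), its auxiliary subunit Cacng3 (-0.46), the metabotropic receptor Grm7 (-0.43) and the scaffold Dlg2 (-0.32). Gria3 stood at 160.3, 124, 153, 152 and 168 CPM against 222, 213 and 199 CPM (SE 0.13, edgeR adjusted p = 0.0141), and the groups did not overlap, but without Mouse1565 it was not called (edgeR adjusted p = 0.12). The kinase subunit Camk2a (-0.11) and the scaffold Shank1 (-0.15) were not called.

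Of 44 voltage-gated channel genes 8 were called lower and 0 higher (median -0.29). Scn1a, the sodium channel of fast-spiking interneurons, stood at 68.9, 60.9, 75.04, 72.2 and 88.4 CPM against 96.6, 105 and 113 CPM (-0.52, SE 0.13, edgeR adjusted p = 0.00609). The P/Q-type calcium channel Cacna1a (-0.40), its auxiliary subunit Cacnb4 (-0.40) and the potassium channel partner Kcnip4 (-0.39) were called too. Of 34 presynaptic genes 4 were called lower, Nrxn3 (-0.46), Pclo (-0.40), Unc13b (-0.34) and Unc13a (-0.31), and of 22 GABA genes 2, among them Gabbr2 (-0.30). These counts changed with the mice included. Without Mouse1565 they were 3 for postsynaptic, 2 for channel, 0 for presynaptic and 0 for GABA genes, and in batch I they were 7, 10, 1 and 3. The genes called in batch I were partly others. There the 4 presynaptic genes named here were not called, and neither were Gabbr2, Cacna1a, Grik1 and Dlg2. Beside 2.36% of all genes tested, the shares are 18.2% of channel, 10.9% of postsynaptic, 11.8% of presynaptic and 9.09% of GABA genes.

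Of 12 excitatory, 15 inhibitory, 8 dentate gyrus, 8 CA1 and 11 CA2 and CA3 genes 0 were called in either direction, with medians of -0.11, -0.23, -0.12, -0.07 and -0.03. In batch I 2 dentate gyrus genes were called lower (median -0.51) and 1 gene of CA2 and CA3 higher (median 0.21). Of 8 thalamus and habenula genes 1 was called lower, Nwd2 (-0.60), and 0 without Mouse1565. The only pan-neuronal gene called was Thy1, while Snap25 (-0.29) and Map2 (-0.25) were not. The neuronal list levels were not even across T41B mice. Relative to the wild-type mean, the excitatory list stood at -0.54 and -0.36 in the batch H mice, -0.23 and -0.07 in the batch I mice and 0.01 in Mouse1592, on the mean log2(CPM + 1) scale. The wild-type mice lay between -0.14 and 0.19. The batch H mice also had the highest levels of reactive astrocyte genes, at 1.95 and 2.12, and the part of tissue makeup in the lower neuronal genes was not tested.

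Of 36 neuropeptide genes and receptors 6 (16.7%, against 2.36% of all genes) were called lower. They were Npbwr1 (-1.97), Rxfp1, Crhbp, the melanin-concentrating hormone receptor Mchr1 (-0.72), the delta opioid receptor Oprd1 (-0.53) and Vipr1 (-0.45). In batch I the count was 1, a member other than these 6, all of which lost their call there. Without Mouse1565 the count was 3. Sst (-0.45) and Cck (-0.12) were not called.

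**Figure D3:**
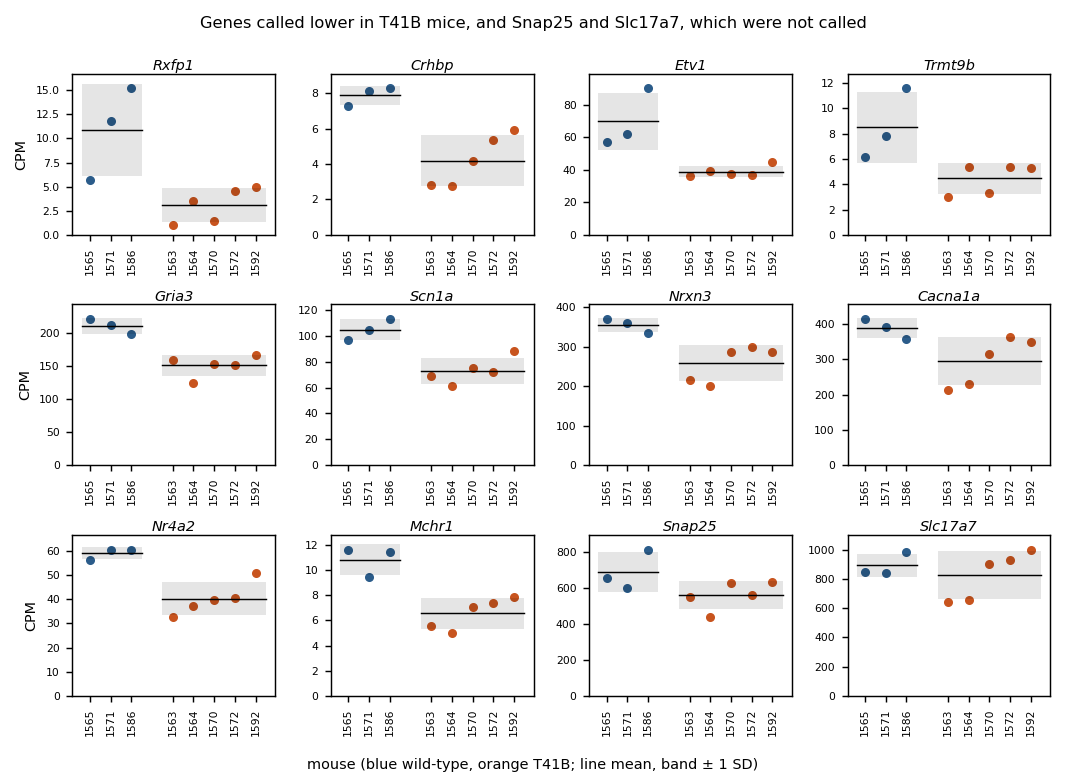
Level (CPM, y axis, linear from 0) of 10 genes called lower and of Snap25 and Slc17a7, which were not called, in each wild-type (blue) and T41B (orange) mouse (x axis), with the mean as a line and ± 1 SD as a band. Rxfp1 lies at 1.05 to 4.96 CPM in T41B and 5.72 to 15.2 CPM in wild-type mice, and for Nrxn3, Cacna1a and Slc17a7 the batch H mice, Mouse1563 and Mouse1564, are the lowest.

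Of 45 tested activity-regulated genes 18 were called higher and 1 lower (median 0.30). Those called higher include Ptgs2, Gadd45g (1.09), Atf3 (1.04), Ier3 (0.96) and Fos (0.55, 448 to 663 against 332 to 388 CPM). Fos was not called without Mouse1565 (edgeR adjusted p = 0.187) or in batch I (0.0923). The one called lower was Nr4a2, an orphan nuclear receptor, at 32.6, 37.1, 39.8, 40.6 and 50.97 CPM against 56.2, 60.6 and 60.5 CPM (-0.55, SE 0.17, edgeR adjusted p = 0.0289). Arc (-0.39), Npas4 (-0.13), Bdnf (-0.15) and Egr1 (0.05), were not called. Without Mouse1565 10 were called higher.

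The genes of the drug's own receptors did not pass the test. Ntrk2, which encodes TrkB, stood at 722, 729.99, 648, 643 and 647 CPM against 571, 632 and 601 CPM (0.17, SE 0.09, edgeR adjusted p = 0.24), and Ntrk3, which encodes TrkC, at 335, 258, 305, 287 and 326 CPM against 443, 356 and 328 CPM (-0.31, SE 0.14, edgeR adjusted p = 0.173). Every T41B slice was above every wild-type slice for Ntrk2, and the groups overlapped for Ntrk3. Of 21 neurotrophin genes and partners 4 were called higher, all signalling or processing partners: the protease Furin (0.82), Shc1 (0.56), Grb2 (0.32) and Frs2 (0.23). Without Mouse1565 it was 2. Of 19 APP processing genes 0 were called higher and 0 lower, with Bace1 at -0.15. Among 34 mouse counterparts of Alzheimer risk genes 12 (35.3%) were called higher and 0 lower. Scimp (3.25), Trem2 and Ms4a6d (2.34) led them, whereas Sorl1 (-0.20) was not called.

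Energy metabolism differed by list. Of 33 nuclear respiratory genes 0 were called in either direction (median 0.04), and of 13 genes of the mitochondrial genome 0 were (median -0.32), although in batch I alone 11 of them were called lower. Mitochondrial genes took 2.36% to 5.4% of counts in T41B slices and 3.16% to 4.84% in wild-type slices. Of 30 glycolysis and hypoxia genes 7 (23.3%, against 8.19% of all genes) were called higher, and 4 without Mouse1565. They included Hk2 (1.97), Hk3 (1.46), the activator Pfkfb3 (0.89) and Hif1a (0.63), but not Aldoa (0.10) or Gapdh (0.08). Of 25 apoptosis and p53 genes 12 were called higher, led by Casp8 (1.63) and by Bcl2a1d and Bcl2a1b (1.66 and 1.38), near-identical copies, and of 31 cell cycle genes 3 were, Mki67 (1.31), Cdkn1a (1.26) and Ccnd2 (0.40). This is 9.68% of the cell cycle list, near the 8.19% of all genes, and 2 were called without Mouse1565 and 1 in batch I.

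Heat shock and folding genes had 4 of 31 called higher, Hspb1 (1.49), Atf3, Bag3 (0.90) and Hspa5 (0.43), while Hspa8 was not called (0.06). Their share, 12.9%, is near that of all genes. Of 26 ribosomal protein genes 1 was called, Rplp0 (0.54), against 8 in batch I and 0 without Mouse1564, Mouse1565 or Mouse1571. All T41B slices were above all wild-type slices for 20 of the 26, against 9.3% of all genes, at a median log2 fold change of 0.36. Of 23 TGF-beta genes 6 were called higher, with the ligand Tgfb1 (1.26) and its receptor Tgfbr2 (1.113), and of 19 adhesion genes 9, with Icam1 (1.36) and Vcam1 (0.999), which bind leukocyte integrins, while the platelet and endothelial selectins Selp (0.22) and Sele (0.79) were not called.

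**Figure D4:**
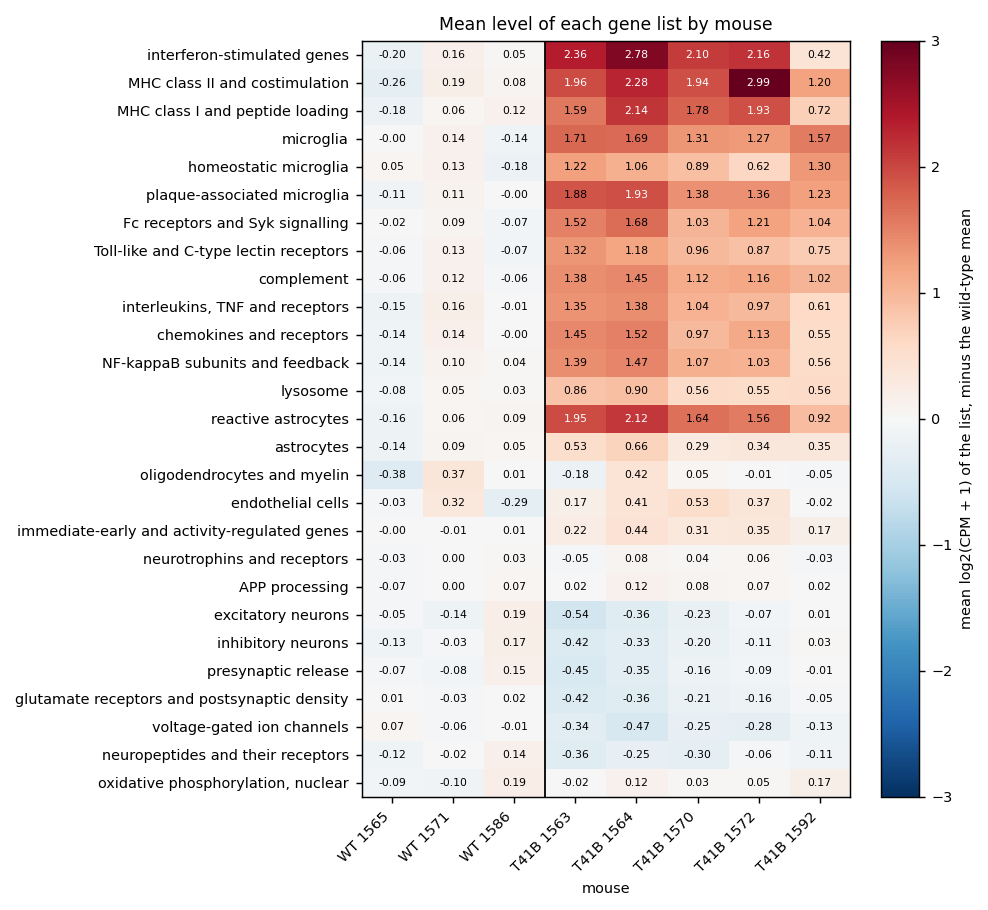
Mean log2(CPM + 1) of 27 gene lists (y axis) in each mouse (x axis) minus the mean of the 3 wild-type mice, as colour and printed value. The interferon row runs from 2.10 to 2.78 in 4 T41B mice and is 0.42 in Mouse1592, whose microglia row is 1.57, and the excitatory neuron row is lowest in Mouse1563 at -0.54.

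Within batch I, the batch with 2 mice of each genotype, the log2 fold changes were 2.65 for Thy1, 5.54 for Cst7, 2.56 for Trem2, 1.75 for Gfap, 2.66 for Il1b and 5.97 for Oas3, all called in edgeR. Among the genes called lower, they were -1.54 for Rxfp1 (edgeR adjusted p = 0.0812), -0.70 for Etv1 (0.00325), -0.52 for Gria3 (0.0107) and -0.46 for Scn1a (0.021).

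Of the genes named here, 45 lost their call without Mouse1565, 35 in batch I and 2 without Mouse1592. Those lost without Mouse1565 that were called higher, with the edgeR adjusted p that each then had, were Apoe (0.0551), Ccnd2 (0.0857), Ciita (0.0522), Clec4e (0.0507), Cspg4 (0.0978), Fos (0.187), Frs2 (0.155), Grb2 (0.0596), Gzmb (0.0741), Il12b (0.126), Il1a (0.0586), Matn4 (0.0853), Opalin (0.334), Rplp0 (0.104), Slc2a1 (0.0524), Sox6 (0.295), Sox9 (0.134) and Vcan (0.113). Those called lower were A230006K03Rik (0.0678), AU022754 (0.0513), Cacna1a (0.282), Cacnb4 (0.0787), Ccdc155 (0.119), Dlg2 (0.101), Gabbr2 (0.244), Gm37999 (0.101), Gm40841 (0.151), Gm47026 (0.0536), Gria3 (0.12), Grm7 (0.0879), Kcnip4 (0.298), Lrrk2 (0.111), Mchr1 (0.094), Mcoln1 (0.182), Nr4a2 (0.0917), Nrxn3 (0.156), Nwd2 (0.143), Oprd1 (0.249), Pclo (0.0576), Ryr1 (0.153), Ryr2 (0.396), Slc25a34 (0.0714), Unc13a (0.377), Unc13b (0.112) and Vipr1 (0.105). In batch I the genes called higher that lost their call were Ccnd2, Fos, Frs2, Grb2, Hif1a, Hspa5, Matn4, Mfsd2a, Mki67, Opalin, Sox6, Sox9, St14, Tlr12 and Tmem119. The genes called lower that did so were A230006K03Rik, AU022754, Cacna1a, Ccdc155, Crhbp, Dlg2, Gabbr2, Grik1, Lrrk2, Mchr1, Mcoln1, Npbwr1, Nrxn3, Oprd1, Pclo, Rxfp1, Trmt9b, Unc13a, Unc13b and Vipr1.

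The design also allows the genotype difference to be set against the same difference in other slices. Against sham slices of BD10-2-treated mice, the interaction of genotype and stimulation had 0 genes called (0% of 19478; 846 at an unadjusted p under 0.05, and the lowest edgeR adjusted p was 0.083). Against stimulated slices of vehicle-treated mice, the interaction of genotype and treatment also had 0 (0%; 940 unadjusted, lowest adjusted p 0.38), and treatment and batch cannot be told apart there. DESeq2 called 20 genes in the first and 0 in the second. With the mouse as a replicate block in limma-voom, which takes account of slices of the same mouse, 5 genes were called in the first, and with batch as a covariate 6. Of the stimulated BD10-2 slices, those of 4 of the 5 T41B and 2 of the 3 wild-type mice have a sham slice of the same mouse in the sham groups, so these 2 genotype differences are not independent.

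Single genes are given side by side. H2-Aa had a log2 difference of 6.66 in stimulated BD10-2 slices, 4.96 in sham BD10-2 slices and 2.72 in stimulated vehicle slices, and Cst7 had 6.47, 7.06 and 6.10. For Gfap the values were 2.11, 2.18 and 1.64, and for Trem2 2.98, 2.57 and 2.404. All 4 genes had a positive difference in each pair of groups. Rsad2 had 2.94, 2.00 and 2.66, and Nos2 3.79, -0.32 and 2.13. Rxfp1 had -1.79, -0.54 and -1.58, Etv1 -0.84, -0.58 and -0.92, and Gria3 -0.48, -0.38 and -0.26.

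The genes nearest to a call in the interaction with stimulation were named after their values were seen. Ifi203 had a log2 fold change of 1.55 in stimulated and -1.36 in sham slices (difference 2.91, SE 0.52, edgeR adjusted p = 0.083). Rnf180, a ubiquitin ligase, had 1.38 and 0.06 (difference 1.32, SE 0.25, edgeR adjusted p = 0.0944), and St14, the protease matriptase, 0.80 and 2.38 (difference -1.58, SE 0.31, edgeR adjusted p = 0.135). Without Mouse1592, 79 genes were called for this interaction, 76 of them positive and 3 negative, and without only its first library 2 were called. The cause of this change was not tested.

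**Figure D5:**
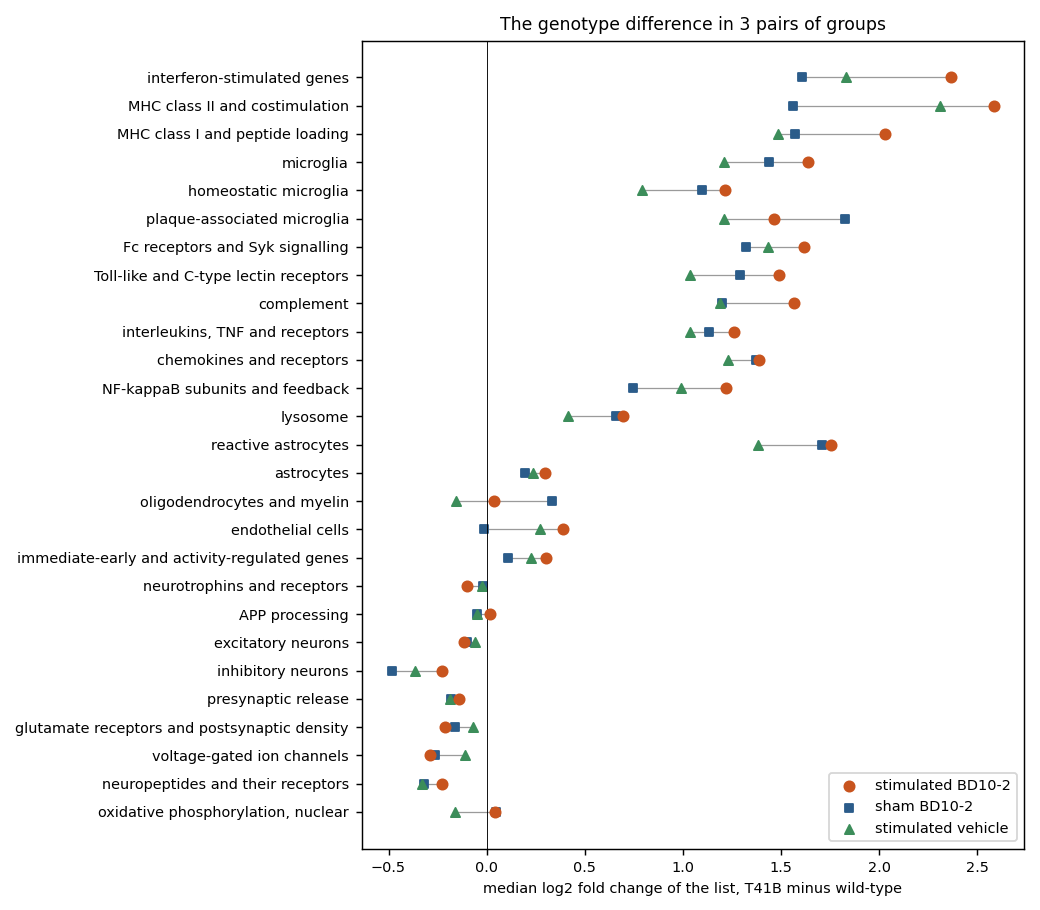
Median log2 fold change (T41B minus wild-type, x axis) of 27 gene lists (y axis) in stimulated BD10-2 slices (orange circles), sham BD10-2 slices (blue squares) and stimulated vehicle slices (green triangles). The interferon median is 2.37, 1.61 and 1.83 in that order and the channel median -0.29, -0.26 and -0.11; the differences between pairs were tested only gene by gene.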

How the data were processed

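Transcripts were measured by RNA sequencing of ribosome-depleted total RNA (200 ng per library, stranded kit), per the labels' protocols. The authors deposited expected counts per gene from RSEM, estimated read counts that are not scaled between libraries, in which 5.69% of values hold decimals. The submitters' processing notes name cutadapt 1.8.1, STAR 2.7.6a, RSEM 1.3.1, featureCounts 1.6 and SAMtools 1.11 with GRCm38.p6 and mm10, and the annotation release and strand setting are not given in the sources used here, so overlapping, antisense and multigene-family counts are uncertain. Of 55421 identifiers 55154 matched a gene symbol, and symbols held by several identifiers took the one with the most counts.

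Libraries with equal mouse and stimulation labels were added and counts were rounded. Genes were filtered with filterByExpr (minimum count 10, 8 groups), scaled by TMM (factors 0.928 to 1.006 in these samples) and tested with edgeR 4.0.16 (quasi-likelihood F test) in 1 fit of all 32 samples with 1 coefficient per group, under R 4.3.3. Standard errors are the log2 fold change divided by the square root of F. DESeq2 1.42.0 and limma 3.58.1, other filters, scalings, libraries, sets of samples and batch terms were alternatives, and leaving out 1 library of Mouse1592 was added after seeing the data. The fit was tested on simulated counts. Nothing says how slices were prepared within a mouse. The p-values rest on a spread estimated over all 32 samples, not only the 8 compared. Sham and stimulated slices of 1 mouse entered that fit as separate samples. A fit of the 2 groups alone called 1105 genes higher and 135 lower.

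Named genes were Thy1, App, the 12 largest called differences in each direction that averaged 1 CPM without overlap, up to 5 called and 2 not called per list, and defining markers of other cell types; other genes were chosen after their values were seen. The 59 lists (1159 genes, 2 not in the table) and the comparison were chosen with earlier results of these data known. Lists carry no test of their own. Some members of the lists are not reported here by name. Promoters and gene positions are RefSeq's, on GRCm38.p6. Counting intervals and floors (3 counts) cover counting error only.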

Additional observations from a re-analysis of the deposited data

Results flagged for a closer look

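In each of the genes named in the text, the highest and the lowest of the 5 T41B mice were compared with the others by Dixon's ratio, and 19 of 223 genes held a mouse apart from the rest. Chance gives about 1 in 20, and the 3 wild-type mice are too few for this check. Mouse1572 was highest for H2-Aa (72.6 CPM), H2-Ab1 (67.4 CPM), H2-Eb1 (59.2 CPM), H2-DMb1 (9.04 CPM) and Cd74 (319.8 CPM), all of class II presentation, and for Cxcl9 (18.1 CPM), Irf8 (79.8 CPM) and the choroid plexus gene Ttr (9.48 CPM). Mouse1564 was highest for Nlrp3 (127 CPM), Apoe (2555 CPM), Mbp (6644 CPM), Rarres2 (6.05 CPM) and Rplp0 (281 CPM). Mouse1592 was highest for Cx3cr1 (33.7 CPM) and Ryr1 (56.4 CPM) and lowest for the adhesion genes Icam1 (75.1 CPM) and Vcam1 (64.8 CPM) and for Prdx1 (89.7 CPM). Mouse1563 was lowest for App (953 CPM).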

How the results depend on the processing

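Against 1596 genes called higher and 460 lower, the number called lower was 93 at an adjusted p under 0.01, 243 with no count filter, 135 in a fit of the 2 groups alone, 211 in a fit of the 4 stimulated groups, 718 in batch I and 226 with the first library of each mouse. Leaving out 1 mouse at a time gave 991 to 1855 called higher and 64 to 587 called lower, and the cause was not tested. The interaction of genotype with stimulation had 20 genes with DESeq2, 5 with limma-voom and the mouse as replicate block, 2 with no filter, 6 with batch as a covariate, 6 with the last library of each mouse, 0 to 79 when mice were left out and 2 without the first library of Mouse1592, an alternative chosen after seeing the data. The interaction with treatment had 0 in each alternative run. With the replicate block 1532 genes were called higher and 562 lower. No paired analysis was possible because the genotypes hold different mice, as far as the genotype difference itself is concerned; the replicate block bears on the interaction with stimulation, where 4 of 5 T41B and 2 of 3 wild-type mice gave both slices. For the 221 named genes other than Thy1 and App, 4219 of 4625 alternative values kept their side of the threshold, 367 lost a call, 39 gained a call and 0 reversed a called direction. Among values not called in either fit, 22 in 14 genes changed sign, with values that round to 0 left out. Of 172 called genes, 113 lost no call at the 0.05 threshold in any alternative that tested them. A gene that an alternative did not test was not counted as lost there. Atp6v0d2 and Gzmb, for example, had no value in batch I, and 166 of the 172 had one at a minimum count of 50. Depth limits the genes of few counts, such as Gzmb and the leukocyte markers.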

Other observations

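Many genes with large differences were on none of the lists; those given here were chosen after their values were seen. Themis2, a signalling scaffold of lymphocytes and macrophages, stood at 11.95, 12.8, 4.54, 14.1 and 2.25 CPM in T41B slices and 0.608, 0.496 and 0.709 CPM in wild-type slices (log2 fold change 3.86, SE 0.52, edgeR adjusted p = 6.63e-06). Hcar2, the receptor for niacin and ketone bodies, stood at 209, 239, 131, 130.5 and 57.1 CPM against 9.16, 15.01 and 13.1 CPM (3.63, SE 0.37). Acod1, which makes itaconate in activated macrophages, stood at 53.01 to 298 against 17.4 to 26.8 CPM (3.12, SE 0.48), and Csf2rb, the shared receptor chain for interleukin 3 and GM-CSF, at 12.6 to 56.3 against 2.31 to 5.39 CPM (3.47, SE 0.45). Slamf7 (3.68), the interferon-induced GTPase Iigp1 (3.03), the lysozyme gene Lyz2 (3.01) and Cd52 (3.03) were also called higher in edgeR.

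Among genes called lower outside the lists were the calcium release channels Ryr1 (-0.67, SE 0.20) and Ryr2 (-0.37, SE 0.12), and Unc79 (-0.47) and Unc80 (-0.44), which encode subunits of the sodium leak channel complex. Without Mouse1565 the edgeR adjusted p was 0.153 for Ryr1 and 0.396 for Ryr2. Unc80 stood at 433, 429, 519.8, 528 and 591 CPM against 696, 675 and 671 CPM (SE 0.08, edgeR adjusted p = 0.000439). The kinase gene Lrrk2 stood at 28.99 to 40.5 CPM in T41B and 42.9 to 50.6 CPM in wild-type slices (-0.47, SE 0.16, edgeR adjusted p = 0.0472). That call was lost without Mouse1592 (edgeR adjusted p = 0.065), without Mouse1565 (0.111) and in batch I (0.143).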
